A study of Mus musculus with 80 samples.

Results

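The granins and the enzymes that turn prohormones into active peptides were followed across 5 regions of the female mouse brain. The group holds 10 of the 27179 genes counted: the granins Chga, Chgb, Scg2 and Scg3, the convertase chaperone Scg5, the convertases Pcsk1 and Pcsk2, the convertase inhibitor Pcsk1n, the carboxypeptidase Cpe and the amidating enzyme Pam. The group was chosen because Chga differed between the reproductive states in opposite directions in hypothalamus and amygdala. Values of that contrast in those 2 regions are therefore given as a description. Counts of calls in it stand beside the share of all genes, and nothing is read from them. All 10 genes were among the 13016 genes that passed the filter on low values, which asked for a value of 5 or more on the counts-per-million scale (CPM, reads relative to the total of the library) in at least 8 libraries. The lowest value of any of the 10 genes in any library was 11.3 CPM, for Pcsk1 in a hippocampal library.

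RNA-seq was run on polyadenylated RNA from 16 C57BL/6J females (C57BL/6 in the labels) of 1 age, 8 virgin and 8 primiparous. Each primiparous female was paired with a male from about 8 weeks of age for 2 weeks, raised 1 litter, and was dissected after the pups were weaned. The interval from weaning to dissection is 3 weeks in the labels and more than a month in the study's methods. Virgins were age-matched, were housed 8 per cage and met no male, so that parity cannot be told apart from mating, contact with males and housing. Animal numbers had 3 digits in 2 of 8 virgins and 7 of 8 primiparous females, so the number series was largely confounded with state. The whole hypothalamus was used, and the left side of the amygdala, hippocampus, neocortex and cerebellum. The 77 libraries analysed each came from 1 animal and 1 region, with 8 virgin and 8 primiparous libraries in hypothalamus and in neocortex, and 7 virgin and 8 primiparous libraries in each of the other regions. All regions came from the same 16 animals. Counted reads per library ran from 7959192 to 37871854, with a median of 17623886.

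Neuropeptides and peptide hormones are made as larger precursors that are sorted, together with the granins, into dense-core vesicles. Inside the vesicle the convertases cut the precursor after pairs of basic residues, Cpe trims the basic residues left behind, and Pam amidates the end of many of the finished peptides. Granins help to form the vesicle and to concentrate its contents, and are themselves cut into peptides. Scg5 (7B2) accompanies Pcsk2 until it becomes active, and Pcsk1n (proSAAS) inhibits Pcsk1. The hypothalamus is rich in peptide-releasing neurons.

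In the GENCODE M21 annotation of GRCm38, the build of the counts (mm10), the 10 genes lie on 7 chromosomes. Reads were summed over the exons of a gene, so that the parts of a transcript, coding or untranslated, cannot be told apart. Chga lies at chr12:102554969-102565028 on the + strand and Chgb at chr2:132781278-132795079 on the + strand. Scg2 lies at chr1:79434669-79440120 and Scg3 at chr9:75643189-75684056, both on the - strand. Scg5 lies at chr2:113776362-113829121 on the - strand, and Pcsk2 on the same chromosome at chr2:143546156-143816285 on the + strand. Pcsk1 lies at chr13:75089826-75134861 and Pcsk1n at chrX:7919822-7924410, both on the + strand. Cpe lies at chr8:64592542-64693054 and Pam at chr1:97795114-98095646, both on the - strand.

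Several granins and Pcsk1 are known targets of cAMP signalling, which acts through the cAMP response element TGACGTCA and shorter forms of it. The 250 bases before the annotated start were read for 9 of the 10 genes from RefSeq (GRCm38.p6). Cpe was not among them. The 8 letters TGACGTCA, which read the same on both strands, stood before 3 of the 9 genes (Chgb, Scg2 and Pcsk1) and before 1.77% of the 27025 genes with a window. The 6 letters TGACGT, or ACGTCA on the other strand, which the longer motif contains, stood before 5 of the 9 genes and before 7.29% of all genes. The 5 letters TGACG, or CGTCA on the other strand, which both longer motifs contain, stood before 7 of the 9 genes and before 19.8% of all genes. The matches are descriptions of letters, since no binding was measured. The 30 bases around each match of 6 or 8 letters are shown, 5′ to 3′ on the strand of the gene with the matched letters in capitals, to show how the longer matches of these 5 genes differ in letters and in place.
Chga, chr12:102554885-102554914, + strand, match starting 44 bases before the start: ggggcggtcctaTGACGTaatttcctgggt
Chgb, chr2:132781559-132781588, + strand, match starting 72 bases before the start: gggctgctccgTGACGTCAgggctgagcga
Scg2, chr1:79440076-79440105, - strand, match starting 68 bases before the start: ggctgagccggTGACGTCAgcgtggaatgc
Scg5, chr2:113829249-113829278, - strand, match starting 175 bases before the start: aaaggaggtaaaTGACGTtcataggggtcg
Pcsk1, chr13:75089768-75089797, + strand, match starting 78 bases before the start: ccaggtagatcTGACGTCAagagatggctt
Pcsk1, second match, chr13:75089795-75089824, + strand, starting 50 bases before the start: ctttcgtcgattTGACGTgtaaacactcat
The matches before Chga, Scg5 and Pcsk1 lay outside the gene in GENCODE M21, whereas those of Chgb and Scg2 lay in an exon of a transcript that GENCODE starts farther upstream. Chga carried the shorter form, TGACGT, at a distance from the start like that of the sites of Chgb, Scg2 and Pcsk1, and the match of Scg5 lay farthest from its start.

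The window of Chga, the gene the group was chosen by, is shown whole (chr12:102554691-102554940, + strand), with the 6 matched letters in capitals.
Chga: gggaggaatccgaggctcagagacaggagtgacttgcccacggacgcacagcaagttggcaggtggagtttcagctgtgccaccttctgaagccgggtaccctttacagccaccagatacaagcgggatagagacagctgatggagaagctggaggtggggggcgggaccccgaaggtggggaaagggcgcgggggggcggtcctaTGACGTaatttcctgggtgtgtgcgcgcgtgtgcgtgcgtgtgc
The window of Pcsk1n held none of the 3 motifs, and neither did the windows of Pam. Those of Scg3 and Pcsk2 held the 5 letters only.

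Before the levels are compared, the libraries were checked against marker genes of the regions. The 5 hypothalamic markers, the 4 cerebellar markers, the 3 hippocampal and the 3 cortical markers were each highest in the region they mark. Of the 3 amygdala markers only Cyp26b1 was highest in amygdala, so that the amygdala dissection is less well marked. The neocortex library of primiparous animal 427 stood apart, at a Euclidean distance of 46.7 from the mean of its region against 26.3 for the next library. The hippocampus library of primiparous animal 413 had 54.3 CPM of the cerebellar granule cell gene Gabra6, where no other hippocampal library had more than 1.77 CPM. The hormone genes Prl and Gh of the anterior pituitary were high in animal 427 in all 5 regions, with Prl from 47.9 CPM in hippocampus to 125 CPM in amygdala, and Prl was at 120 CPM in the hypothalamus of virgin animal 4490.

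Across regions, the 10 genes together took 0.651% ± 0.0254 (SD, n = 16) of all counted reads in hypothalamus and 0.323% ± 0.0228 (n = 15) in cerebellum. Amygdala had 0.560% ± 0.0249 (n = 15), hippocampus 0.523% ± 0.0138 (n = 15) and neocortex 0.519% ± 0.0411 (n = 16). Between regions, all 10 genes passed the test (edgeR quasi-likelihood, adjusted p under 0.05) for hypothalamus against hippocampus, against neocortex and against cerebellum, where 73%, 77.7% and 81.1% of all genes passed. Hypothalamus and amygdala differed in 8 of the 10 genes, against 71% of all genes. Amygdala differed from hippocampus in 6 (58.7% of all genes) and from neocortex in 6 (62.5%). Amygdala and cerebellum differed in 9 of the 10 genes (80.2% of all genes), hippocampus and neocortex in 9 (67%), hippocampus and cerebellum in 7 (78.7%), and neocortex and cerebellum in 10 (79.9%). With most genes of the whole table differing between regions, the order of the regions and the size of the steps say more about each gene than the count does. In bulk tissue, fewer cells of a type and less RNA per cell cannot be told apart. The fitted differences use normalisation factors whose median ran from 0.955 in hippocampus to 1.06 in hypothalamus. They therefore differ slightly from ratios of the CPM means.

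**Figure D1:**
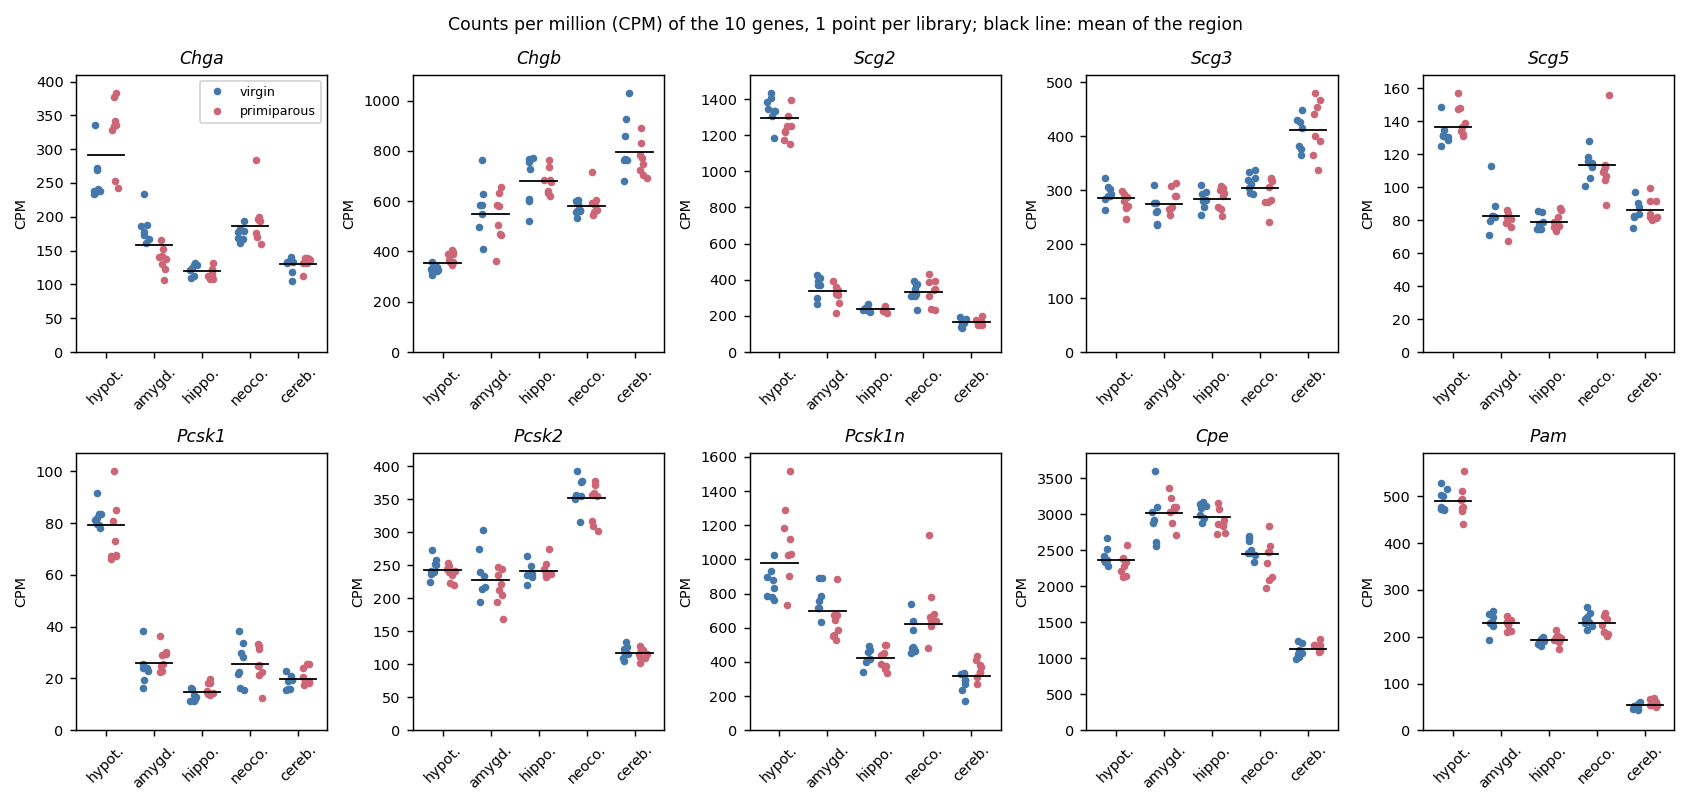
Level (vertical axis, CPM) of each of the 10 genes in the 5 regions (horizontal axis), with 1 point per library, blue for virgin and red for primiparous, and a black line at the mean of the region. Scg2, Pcsk1 and Pam stood highest in hypothalamus with no overlap with any other region, Chgb and Scg3 were highest in cerebellum, and Cpe and Pam were lowest there.

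Among the granins, Scg2 (secretogranin II, the precursor of secretoneurin) had the steepest gradient. Its level was 1293 ± 88.3 CPM in hypothalamus (SD, n = 16), with single libraries between 1152 and 1435 CPM. In the other regions it was 339 ± 58.2 CPM in amygdala (n = 15), 335 ± 60.2 CPM in neocortex (n = 16), 235 ± 12.6 CPM in hippocampus (n = 15) and 163 ± 18.6 CPM in cerebellum (n = 15). The highest library outside the hypothalamus was at 431 CPM, so that no library overlapped. The fitted difference between hypothalamus and cerebellum was 2.98 ± 0.07 on the log2 scale (SE), a 7.89-fold difference (edgeR adjusted p = 7.5e-53). In the order of the regions only amygdala and neocortex, neighbours 0.05 ± 0.06 apart on the log2 scale, did not pass the test (edgeR adjusted p = 0.51).

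Chga (chromogranin A) was also highest in hypothalamus, at 291 ± 54.7 CPM (n = 16). It was at 186 ± 29.3 CPM in neocortex (n = 16), 159 ± 31.5 CPM in amygdala (n = 15), 130 ± 10.3 CPM in cerebellum (n = 15) and 120 ± 8.40 CPM in hippocampus (n = 15). Each step down this order passed the test except that between hippocampus and cerebellum, where the fitted difference was 0.02 ± 0.06 on the log2 scale (edgeR adjusted p = 0.79). The whole range was 1.15 ± 0.06 on the log2 scale, or 2.21-fold.

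Chgb (chromogranin B) ran the other way. It was lowest in hypothalamus, at 352 ± 29.9 CPM (n = 16), and highest in cerebellum, at 796 ± 96.9 CPM (n = 15). The other regions lay between, with 551 ± 103 CPM in amygdala, 581 ± 42.0 CPM in neocortex and 680 ± 75.2 CPM in hippocampus. Cerebellum exceeded hypothalamus by 1.19 ± 0.06 on the log2 scale (edgeR adjusted p = 5.4e-31), a 2.28-fold difference. Hippocampus and cerebellum did not pass the test against each other (edgeR adjusted p = 0.17), nor did amygdala and neocortex (edgeR adjusted p = 0.47).

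Scg3, which binds Chga and the vesicle membrane, varied least of the 10 genes. It was at 412 ± 42.3 CPM in cerebellum (n = 15) and between 274 and 304 CPM on average in the other 4 regions. Cerebellum exceeded neocortex, the next region, by 0.33 ± 0.04 on the log2 scale (edgeR adjusted p = 1.8e-10), and the fitted order below it was neocortex, hippocampus, amygdala and hypothalamus. No neighbours in that order passed the test against each other, whereas pairs farther apart did. Hypothalamus minus neocortex was -0.21 ± 0.04 on the log2 scale (edgeR adjusted p = 1.2e-05), hypothalamus minus hippocampus -0.14 ± 0.04 (edgeR adjusted p = 0.0028) and amygdala minus neocortex -0.12 ± 0.04 (edgeR adjusted p = 0.010). Scg2 and Chga were thus highest in hypothalamus, and Chgb and Scg3 in cerebellum.

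Vgf, a granin-like precursor outside the group, had the widest range. It stood at 378 ± 48.1 CPM in hypothalamus (n = 16) and 27.0 ± 6.22 CPM in cerebellum (n = 15), a fitted difference of 3.82 ± 0.08 on the log2 scale.

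Of the convertases, Pcsk1 (PC1/3) was concentrated in the hypothalamus, whereas Pcsk2 (PC2) was highest in the neocortex. Pcsk1 was at 79.1 ± 9.31 CPM in hypothalamus (n = 16), with no library under 66.3 CPM. It was at 26.1 ± 5.86 CPM in amygdala, 25.6 ± 7.32 CPM in neocortex, 20.0 ± 3.29 CPM in cerebellum and 14.8 ± 2.56 CPM in hippocampus. The highest library outside the hypothalamus reached 38.4 CPM. Hypothalamus exceeded hippocampus by 2.29 ± 0.11 on the log2 scale, or 4.88-fold (edgeR adjusted p = 1.4e-31), and amygdala and neocortex did not pass the test against each other (edgeR adjusted p = 0.79).

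Pcsk2 was at 352 ± 27.1 CPM in neocortex (n = 16), at 243 ± 13.6 CPM in hypothalamus, 242 ± 13.6 CPM in hippocampus and 227 ± 33.3 CPM in amygdala, and at 117 ± 8.92 CPM in cerebellum (n = 15). Neocortex exceeded cerebellum by 1.70 ± 0.05 on the log2 scale, or 3.24-fold (edgeR adjusted p = 1.3e-47). In the fitted order hippocampus, amygdala and hypothalamus, each lay within 0.09 of its neighbour on the log2 scale, and neither step passed the test (edgeR adjusted p = 0.11 and 0.35). The outer pair did pass, with hypothalamus minus hippocampus at -0.14 ± 0.05 (edgeR adjusted p = 0.0072).

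The partners of the convertases were both highest in hypothalamus. Pcsk1n was at 982 ± 214 CPM in hypothalamus, 699 ± 123 CPM in amygdala, 623 ± 173 CPM in neocortex, 423 ± 55.5 CPM in hippocampus and 319 ± 67.2 CPM in cerebellum. Every step of that order passed the test, the smallest being amygdala over neocortex at 0.21 ± 0.09 on the log2 scale (edgeR adjusted p = 0.040). Scg5 was at 137 ± 8.94 CPM in hypothalamus and 113 ± 14.1 CPM in neocortex, and at 82.2 ± 10.1, 79.0 ± 4.94 and 86.0 ± 6.82 CPM in amygdala, hippocampus and cerebellum, among which no pair passed the test.

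Downstream of the convertases, Pam (peptidylglycine alpha-amidating monooxygenase) had the widest range of the 10 genes. It was at 491 ± 27.7 CPM in hypothalamus (n = 16), at 230 ± 18.3 CPM in neocortex, 229 ± 15.8 CPM in amygdala and 192 ± 9.75 CPM in hippocampus, and at 54.7 ± 6.77 CPM in cerebellum (n = 15). Hypothalamus exceeded cerebellum by 3.17 ± 0.04 on the log2 scale, or 8.98-fold (edgeR adjusted p = 2.3e-68). The highest cerebellar library, at 68.8 CPM, lay far below the lowest library of any other region, at 173 CPM. Cpe was the most abundant of the group in every region. It was at 3010 ± 271 CPM in amygdala, 2965 ± 150 CPM in hippocampus, 2440 ± 228 CPM in neocortex and 2357 ± 145 CPM in hypothalamus, and at 1133 ± 79.1 CPM in cerebellum. Its range was 1.55 ± 0.04 on the log2 scale, or 2.92-fold (edgeR adjusted p = 1.2e-49).

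To compare levels between genes, CPM were divided by the exon length in kilobases (RPKM). Cpe ranked first of the 10 genes in all 5 regions, from 434 ± 30.3 RPKM in cerebellum to 1154 ± 104 RPKM in amygdala. Pcsk1 ranked last in all 5, from 2.64 ± 0.457 RPKM in hippocampus to 14.1 ± 1.66 RPKM in hypothalamus. Pcsk1n stood at 448 ± 97.6 RPKM in hypothalamus and 146 ± 30.6 RPKM in cerebellum, so that the inhibitor transcript was far more abundant per length than that of the convertase it inhibits in each region. Chgb ranked second in cerebellum, at 290 ± 35.4 RPKM, and second in hippocampus, at 248 ± 27.5 RPKM. In hypothalamus it was at 128 ± 10.9 RPKM. Chga was at 106 ± 19.8 RPKM in hypothalamus, near Scg3 at 104 ± 6.90 RPKM.

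**Figure D2:**
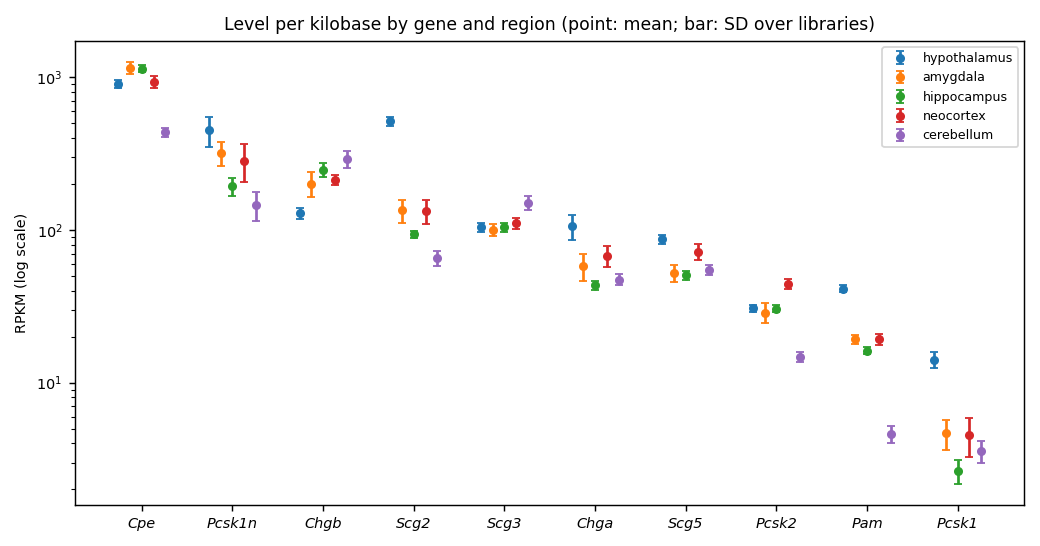
Level per kilobase of exon (vertical axis, RPKM, log scale) of the 10 genes (horizontal axis, ordered by their mean) in the 5 regions, where points are means over libraries and bars the SD. Cpe ranked first and Pcsk1 last in each region, and the coloured points of Pam and Scg2 spread most between regions.

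Because a ratio within a library does not depend on its depth, the convertases were also compared with each other and with their partners as log2 ratios of read counts, with the regions of 1 animal paired. Pcsk1 to Pcsk2 was -1.63 ± 0.20 in hypothalamus (SD, n = 16), -2.56 ± 0.23 in cerebellum (n = 15), -3.14 ± 0.30 in amygdala (n = 15), -3.83 ± 0.42 in neocortex (n = 16) and -4.05 ± 0.25 in hippocampus (n = 15). Hypothalamus exceeded hippocampus by 2.43 ± 0.39 (SD over 15 animals), with the same sign in 15 of 15 animals (adjusted p = 0.00014 by an exact permutation of signs, which was two-sided and could give no unadjusted p under 6.1e-05). Of the 30 comparisons, made of 3 ratios and 10 pairs of regions, only 5 did not pass. One of these was Pcsk1 to Pcsk2 in hippocampus against neocortex, at -0.21 ± 0.43 (exact permutation test, adjusted p = 0.093, n = 15). Without the libraries of animals 413 and 427 that stood apart, that difference was -0.25 and passed (exact permutation test, adjusted p = 0.032). The relative weight of Pcsk1 was thus greatest in hypothalamus, and second in cerebellum, where both convertases were low.

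The log2 ratio of Pcsk1n to Pcsk1 was lowest in hypothalamus, at 3.61 ± 0.43 (n = 16), and next in cerebellum, at 3.98 ± 0.34 (n = 15). It was 4.62 ± 0.75 in neocortex, 4.75 ± 0.47 in amygdala and 4.84 ± 0.36 in hippocampus, and no pair among these 3 regions passed the test (exact permutation test, smallest adjusted p = 0.42, n = 14 or 15). Hypothalamus minus cerebellum was -0.34 ± 0.54, with this sign in 11 of 15 animals (exact permutation test, adjusted p = 0.033). The log2 ratio of Scg5 to Pcsk2 was highest in cerebellum, at -0.45 ± 0.19, followed by hypothalamus at -0.83 ± 0.12, and was -1.46 ± 0.16 in amygdala, -1.61 ± 0.09 in hippocampus and -1.64 ± 0.18 in neocortex. Cerebellum exceeded hypothalamus in 15 of 15 animals (exact permutation test, adjusted p = 0.00014), and hippocampus and neocortex did not pass the test (exact permutation test, adjusted p = 0.76, n = 15).

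**Figure D3:**
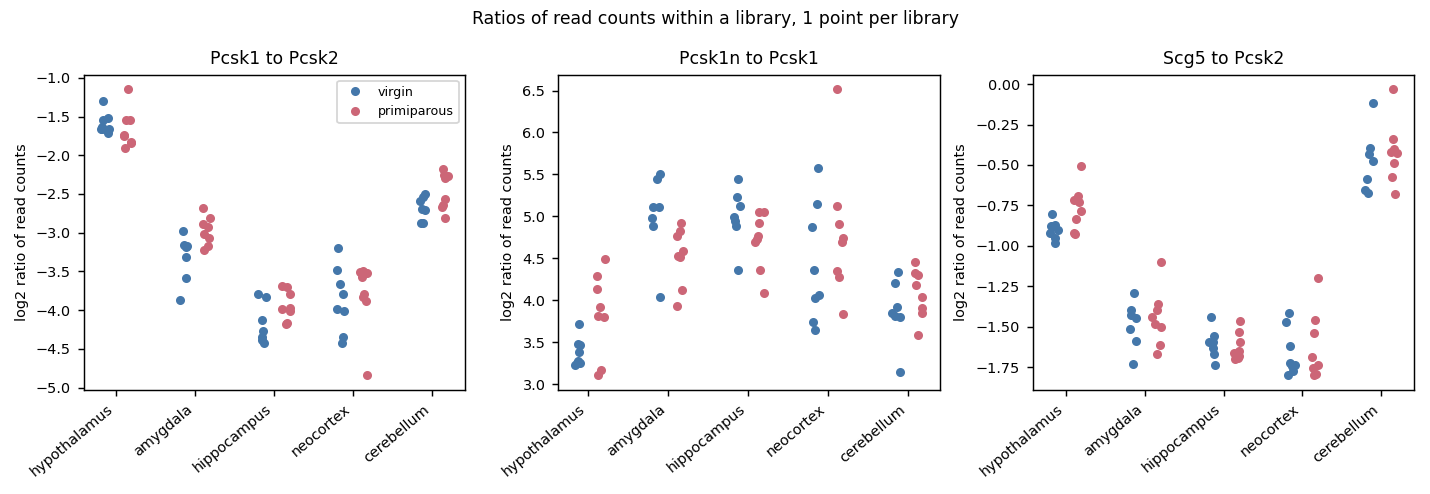
Log2 ratios of read counts within a library (vertical axis) in the 5 regions (horizontal axis) for Pcsk1 to Pcsk2, Pcsk1n to Pcsk1 and Scg5 to Pcsk2, with 1 point per library, blue for virgin and red for primiparous. Pcsk1 to Pcsk2 was highest in hypothalamus, and Scg5 to Pcsk2 was highest in cerebellum.

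Reproductive state was then compared within each region. In the hypothalamus, the contrast that chose the group, Chga was at 234, 239 and 336 CPM in the lowest, median and highest of 8 virgin libraries, and at 243, 335 and 384 CPM in the lowest, median and highest of 8 primiparous libraries. Of the 8 primiparous libraries 6 lay above the virgin mean of 258 CPM and 4 above the highest virgin library. The groups overlapped through virgin animal 409, at 336 CPM, and primiparous animals 418 and 4493, at 253 and 243 CPM. The fitted log2 fold change (primiparous over virgin) was 0.31 ± 0.09 (SE), a change of 23.9%.

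In the amygdala Chga was at 162, 178 and 233 CPM in the lowest, median and highest of 7 virgin libraries, and at 106, 139 and 165 CPM in 8 primiparous libraries. All 8 primiparous libraries lay below the virgin mean of 184 CPM, and 7 of them below the lowest virgin library. The groups overlapped through primiparous animal 413, at 165 CPM, and virgin animal 409, at 162 CPM, which had the lowest virgin value here and the highest in hypothalamus. The fitted log2 fold change was -0.41 ± 0.08.

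Pcsk1n had the same signs as Chga in both regions. In hypothalamus it was at 765, 856 and 1028 CPM in the lowest, median and highest virgin libraries, and at 734, 1077 and 1518 CPM in the primiparous libraries, of which 5 lay above the highest virgin value and 1 below the lowest. The log2 fold change was 0.33 ± 0.11. In amygdala it was at 633, 759 and 892 CPM in virgin libraries and at 528, 615 and 885 CPM in primiparous libraries, with a log2 fold change of -0.26 ± 0.10. In both regions the groups overlapped. In amygdala 4 of 8 primiparous libraries lay below the lowest virgin library, and primiparous animal 413 stood at 885 CPM with its next neighbour at 675 CPM.

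Of the other genes in hypothalamus, Chgb was at 308, 327 and 358 CPM in virgin and at 346, 377 and 404 CPM in primiparous libraries, all 8 of which lay above the virgin mean of 329 CPM. Its log2 fold change was 0.17 ± 0.04, the smallest SE of the 10 genes in this contrast. Scg2 was lower in primiparous libraries, at 1152, 1237 and 1393 CPM against 1186, 1340 and 1435 CPM in virgin libraries, with a log2 fold change of -0.13 ± 0.05 and 7 of 8 primiparous libraries under the virgin mean. The log2 fold change was -0.11 ± 0.05 for Scg3, -0.14 ± 0.07 for Pcsk1, -0.07 ± 0.05 for Pcsk2, -0.09 ± 0.04 for Cpe, -0.03 ± 0.05 for Pam and 0.07 ± 0.05 for Scg5. Pcsk1 had 5 of 8 primiparous libraries below the lowest virgin library, whereas primiparous animal 4493, at 100.1 CPM, lay above every virgin library.

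By the threshold used for all genes, 4 of the 10 genes were called in hypothalamus, beside 22.6% of all genes: Chga, Chgb and Pcsk1n higher (beside 10.8% of all genes) and Scg2 lower (beside 11.8%) in primiparous females. Since the contrast chose the group, nothing is read from that count. The calls of Pcsk1n and Scg2 held in only 5 and 3 of the 16 fits that left out 1 library. With the animal number series (3 or 4 digits) as covariate none of the 10 was called, beside 0.023% of all genes. The median log2 fold change was -0.05 over the 10 genes and 0.01 over all genes. With an offset that removes the trend of each library with gene length and GC content, the log2 fold changes were 0.14 for Chga, 0.17 for Pcsk1n, 0.08 for Chgb and -0.05 for Scg2, and none of the 10 was called, beside 2.96% of all genes. Chga and Pcsk1n have a transcript GC content of 58.4% and 57.3%, higher than that of 88.2% and 84.2% of the genes tested, and the part of base composition in the difference was not tested beyond this offset.

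**Figure D4:**
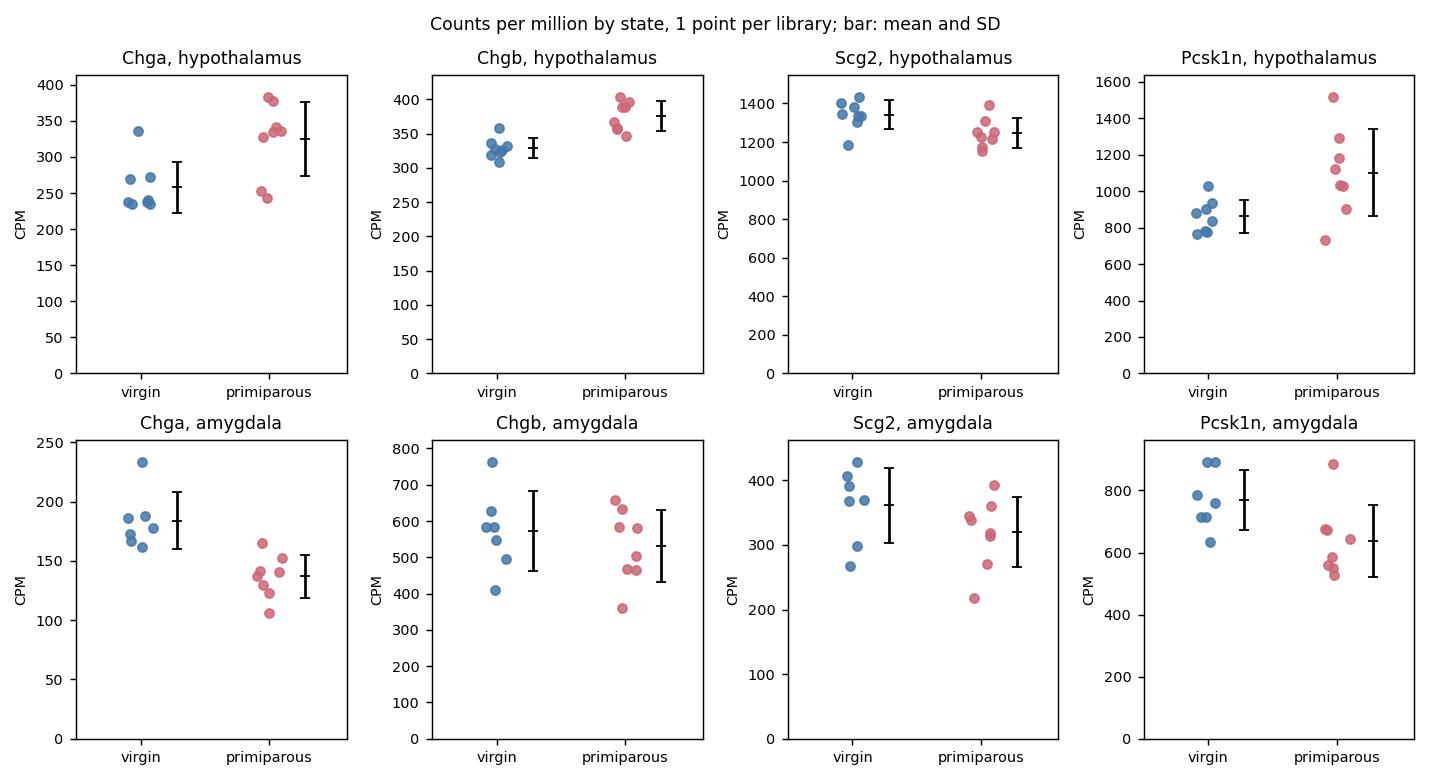
Level (vertical axis, CPM) of Chga, Chgb, Scg2 and Pcsk1n in virgin and primiparous libraries (horizontal axis) of hypothalamus (upper row) and amygdala (lower row), with 1 point per library and black bars for the mean and SD. Primiparous libraries of Chga reached 384 CPM in hypothalamus and at most 165 CPM in amygdala, and every pair of groups overlapped.

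In amygdala edgeR called none of the 10 genes, beside 0% of all genes. The count was 2 at an unadjusted p under 0.05, beside 11.9% of all genes, and 1 by DESeq2, beside 0.73%. Since this contrast also chose the group, nothing is read from these counts. Without primiparous animal 413 the log2 fold change of Chga was -0.45. Over the 15 fits that left out 1 library it ran from -0.45 to -0.35. The other log2 fold changes were -0.10 ± 0.13 for Chgb, -0.17 ± 0.11 for Scg2, 0.10 ± 0.07 for Scg3, -0.10 ± 0.08 for Scg5, 0.19 ± 0.14 for Pcsk1, -0.14 ± 0.09 for Pcsk2, 0.06 ± 0.07 for Cpe and -0.02 ± 0.06 for Pam. Vgf was at 322, 337 and 527 CPM in virgin and at 249, 279 and 341 CPM in primiparous libraries of amygdala, a log2 fold change of -0.40 ± 0.09, with 7 of 8 primiparous libraries below the lowest virgin library. The state effect in hypothalamus minus that in amygdala was 0.73 ± 0.13 on the log2 scale for Chga and 0.60 ± 0.16 for Pcsk1n. With the animal as a block together with the length and GC offset, these differences were 0.45 ± 0.12 and 0.33 ± 0.10. These 2 of the 10 genes were past the threshold without the offset, beside 18.2% of all genes. The group was chosen by the opposite signs of Chga in these regions, so that the count and the differences are a description and no test. Set as ratios within a library, Pcsk1n to Pcsk1 was 3.38 ± 0.17 in virgin and 3.84 ± 0.49 in primiparous hypothalamus on the log2 scale (SD, n = 8 each), and 5.01 ± 0.49 (n = 7) and 4.52 ± 0.34 (n = 8) in amygdala. Scg5 to Pcsk2 was -0.90 ± 0.05 in virgin and -0.76 ± 0.14 in primiparous hypothalamus, and -1.48 ± 0.14 and -1.44 ± 0.17 in amygdala. Pcsk1 to Pcsk2 was -1.59 ± 0.13 in virgin and -1.66 ± 0.25 in primiparous hypothalamus, and -3.32 ± 0.31 and -2.97 ± 0.18 in amygdala, a difference of 0.35. For the other 8 genes the state effect in hypothalamus minus that in amygdala lay between -0.33 ± 0.16, for Pcsk1, and 0.27 ± 0.13, for Chgb.

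Pituitary and other cell type markers were set beside the change in Chga. In hypothalamus the summed level of 6 anterior pituitary genes ran from 0.855 to 183 CPM in virgin and from 0.665 to 142 CPM in primiparous libraries. The medians of these sums were 7.49 CPM in virgin and 18.3 CPM in primiparous libraries. Animals 4490, 427 and 414, which had the most, had 270, 336 and 328 CPM of Chga, inside the range of the other libraries of their group. In amygdala the pituitary genes summed to 173 CPM in primiparous animal 427, which had the lowest Chga, at 106 CPM, and to at most 30.1 CPM in any other library. Their part in the Chga difference was not tested. The log2 fold change of Chga in amygdala was -0.36 without that library. None of the neuronal, astrocyte, microglial, oligodendrocyte or endothelial markers was called in amygdala (edgeR). Of the 7 neuronal markers 3 had an unadjusted p under 0.05, beside 11.9% of all genes: Rbfox3, Tubb3 and Eno2, with log2 fold changes of -0.20 ± 0.06, -0.27 ± 0.09 and -0.15 ± 0.06. The other 4 lay between -0.06, for Syt1, and 0.01, for Stmn2, and the 7 markers summed to 4101 to 5972 CPM in virgin and 3739 to 5297 CPM in primiparous libraries. Of the 5 astrocyte markers Aqp4 and Gja1 had such a p, with log2 fold changes of 0.42 ± 0.12 and 0.33 ± 0.10. The other 3 lay between -0.01, for Aldh1l1, and 0.16, for Slc1a3, and the summed level ran from 1332 to 2440 CPM in virgin and from 1621 to 2375 CPM in primiparous libraries. Of the 5 microglial markers it was P2ry12, at 0.27 ± 0.12, while the other 4 lay between 0.06, for Csf1r, and 0.17, for Cx3cr1, with sums of 227 to 355 CPM and 303 to 383 CPM. The part of these markers in the lower Chga was not tested. In hypothalamus 4 of the 7 neuronal markers were called, beside 22.6% of all genes, with Snap25, Syt1 and Elavl2 lower and Rbfox3 higher in primiparous libraries (log2 fold changes of -0.19, -0.15, -0.32 and 0.17). The other 3 were at 0.16 for Tubb3, 0.08 for Eno2 and -0.10 for Stmn2. Their summed level ran from 3786 to 4178 CPM in virgin and from 3612 to 4059 CPM in primiparous libraries, and their part in the differences of the 10 genes was not tested. Of the 18 region markers 3 were called by state in hypothalamus, beside 22.6% of all genes. They were the hypothalamic Pmch at -0.56 ± 0.14, the hippocampal C1ql2 at 0.39 ± 0.09 and the cerebellar Pcp2 at 1.90 ± 0.53. The hypothalamic Otp, Agrp, Nkx2-1 and Hcrt were not called, at 0.32, 0.44, 0.14 and 0.15. Nor were the hippocampal Lct and Prox1, at 1.47 and -0.06, or the cerebellar Fat2, Cbln3 and Gabra6, at 1.79, 0.48 and 0.37. The 5 hypothalamic markers summed to 359 to 674 CPM in virgin and 391 to 614 CPM in primiparous libraries, and the 4 cerebellar ones to 0.233 to 5.56 CPM and 1.23 to 10.1 CPM. The 3 hippocampal markers summed to 36.4 to 43.7 CPM and 41.6 to 53.0 CPM. The part of dissection in the differences of the 10 genes was not tested.

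The 3 regions that did not enter the choice of the group were tested. In the hippocampus none of the 10 genes passed by edgeR, nor did any gene of the table (0%), and the unadjusted p was under 0.05 for 1 of the 10, beside 7.38% of all genes. DESeq2 and limma-voom also called none of the 10, beside 0.0922% and 0% of all genes. That 1 gene was Pcsk1, at 11.3, 12.9 and 16.5 CPM in the lowest, median and highest of 7 virgin libraries and at 13.6, 14.9 and 19.8 CPM in 8 primiparous libraries, all of which lay above the virgin mean of 13.4 CPM. Its log2 fold change was 0.27 ± 0.10 (edgeR adjusted p = 0.61). Chga was at 110 to 131 CPM in virgin and 108 to 131 CPM in primiparous libraries, with a log2 fold change of -0.07 ± 0.05 (edgeR adjusted p = 0.80). The other 8 genes had log2 fold changes between -0.07 and 0.04.

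In the neocortex none of the 10 genes passed (0% of all genes), 2 had an unadjusted p under 0.05, beside 9.8% of all genes, and DESeq2 and limma-voom called none of the 10, beside 0.0307% and 0% of all genes. Those 2 were Pcsk1n and Chga. Pcsk1n was at 452, 484 and 738 CPM in virgin and at 479, 655 and 1143 CPM in primiparous libraries, and its log2 fold change was 0.42 ± 0.14 (edgeR adjusted p = 0.48). Chga was at 161, 173 and 194 CPM in virgin and at 159, 194 and 284 CPM in primiparous libraries, with a log2 fold change of 0.20 ± 0.09 (edgeR adjusted p = 0.49). The highest value of both genes came from animal 427, the library that stood apart. Without it the log2 fold change was 0.29 for Pcsk1n and 0.11 for Chga (edgeR adjusted p = 0.36 and 0.43). The other 8 genes had log2 fold changes between -0.07 and 0.08. The library of animal 427 also had the highest Chgb, Scg2 and Scg5 of the neocortex and the lowest Pcsk1, at 12.4 CPM. Vgf had a log2 fold change of 0.31 ± 0.08 (edgeR adjusted p = 0.48), with 7 of 8 primiparous libraries above the highest virgin library.

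In the cerebellum 0.707% of all genes passed and none of the 10 did, 2 of which had an unadjusted p under 0.05 beside 19.5% of all genes, and neither DESeq2 nor limma-voom called any of the 10, beside 3.88% and 0.553% of all genes. The 2 were Pcsk1n and Pam. Pcsk1n was at 172, 294 and 334 CPM in virgin and at 274, 356 and 434 CPM in primiparous libraries, of which 6 of 8 lay above the highest virgin library. Its log2 fold change was 0.39 ± 0.13 (edgeR adjusted p = 0.14). Pam was at 44.0, 51.8 and 60.1 CPM in virgin and at 50.6, 54.5 and 68.8 CPM in primiparous libraries, with a log2 fold change of 0.19 ± 0.08 (edgeR adjusted p = 0.18). Pcsk1 had a log2 fold change of 0.20 ± 0.11 (edgeR adjusted p = 0.29), and the other genes had log2 fold changes between -0.09, for Chgb, and 0.09, for Cpe. Chga was at 105 to 140 CPM in virgin and 112 to 139 CPM in primiparous libraries, and its log2 fold change was 0.07 ± 0.06 (edgeR adjusted p = 0.54). Of the glial markers in cerebellum, Mbp, Aqp4 and C1qa passed the test, 1 each of 5 for oligodendrocytes, astrocytes and microglia, with log2 fold changes of 0.42 ± 0.08, 0.30 ± 0.06 and 0.42 ± 0.09, and their part in the values of the 10 genes was not tested. With the animal number series as covariate no gene of the whole table passed in cerebellum.

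In none of the 5 regions were the virgin and primiparous values of any of the 10 genes free of overlap. The share of all genes free of overlap was also small, at 0.884% in hypothalamus and 0.146% in amygdala. It was 0.0845% in hippocampus, 0.0154% in neocortex and 0.323% in cerebellum. With shares this low, nothing about the 10 genes is read from their count. The median log2 fold change of the 10 genes was 0.01 in hippocampus, 0.02 in neocortex and 0.06 in cerebellum, and that of all genes 0.00, 0.00 and 0.01. The convertase ratios gave no passing difference by state in these 3 regions. The smallest adjusted p of 9 comparisons was 0.32 (exact permutation test, two-sided), for Pcsk1 to Pcsk2 in hippocampus, 0.23 higher in primiparous libraries, and in cerebellum, 0.22 higher.

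**Figure D5:**
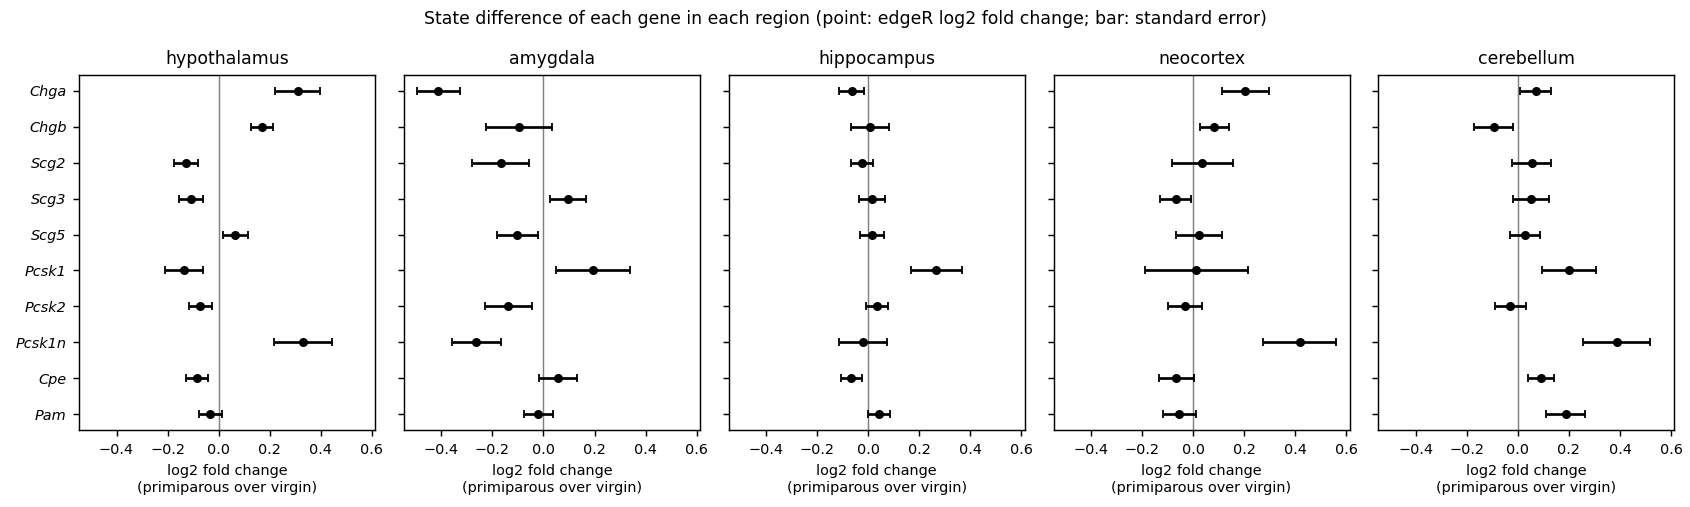
Log2 fold change (horizontal axis, primiparous over virgin) of the 10 genes (vertical axis) in each of the 5 regions, where points are edgeR estimates and bars the SE. Chga and Pcsk1n lay to the right of 0 in hypothalamus and to the left in amygdala, and Pcsk1n lay to the right in neocortex and cerebellum, where no gene passed the test.

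Genes of the same pathway outside the group were counted from lists. Of 14 other processing enzymes tested in hypothalamus, 1 was called higher and 1 lower in primiparous females, of 16 genes of dense-core vesicle biogenesis and release 4 and 3, and of 23 peptide precursors 3 and 3, beside 22.6% of all genes. These come from the contrast the rule used and are given as values. Among the vesicle genes, Baiap3, which acts in vesicle traffic, had a log2 fold change of 0.30 ± 0.05, the vesicle membrane protein Ptprn (IA-2) 0.16 ± 0.05 and the sorting factor Hid1 0.15 ± 0.05. The docking GTPase Rab27b was at -0.39 ± 0.08, Syt4, a synaptotagmin of dense-core vesicles, at -0.28 ± 0.07 and the priming factor Cadps (CAPS1) at -0.14 ± 0.04. The vesicle list thus held values of both signs, with a median of 0.02.

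Of the peptide precursors in hypothalamus, somatostatin (Sst) had a log2 fold change of 0.44 ± 0.08, galanin (Gal) 0.36 ± 0.10 and neuropeptide Y (Npy) 0.53 ± 0.15, whereas melanin-concentrating hormone (Pmch) was at -0.56 ± 0.14, PACAP (Adcyap1) at -0.26 ± 0.07 and neurotensin (Nts) at -0.35 ± 0.13. The median of the 23 was 0.15. Of the processing enzymes, the site-1 protease Mbtps1 was at 0.13 ± 0.04 and the membrane carboxypeptidase Cpm at -0.51 ± 0.12, with a median of 0.04 for the 14. In amygdala, hippocampus and neocortex no gene of these lists was called (edgeR), where 0% of all genes were. In cerebellum the 1 gene that passed, beside 0.707% of all genes, was the cholecystokinin precursor Cck, with a log2 fold change of 0.28 ± 0.06 (edgeR adjusted p = 0.048). This call lay close to the threshold. The number of all genes called in cerebellum was 92, and ran from 6 to 903 when 1 library was left out. It was 0 with the animal number series as covariate.

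The 10 genes also differed in how much they varied between libraries of 1 group. The SD within groups, on the log2(CPM + 4) scale, was 0.25 for Pcsk1n and 0.25 for Pcsk1, above that of 95.3% of all genes each. It was 0.17 for Chga (above 59.1%), and 0.11 for Cpe and 0.11 for Pam, above 8.14% and 8.04% only. Pcsk1 and Pcsk1n were thus the most variable of the group, and Cpe and Pam the steadiest. The other convertase, Pcsk2, was at 0.12, above 18.5% of all genes. Pcsk1 had the lowest level of the 10 genes, and Pcsk1n was highest in neocortex in the library of animal 427 that stood apart. The part of level and of single libraries in these SDs was not tested.

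Once the mean of each region and state was removed, the genes most like Chga over the 77 libraries were Mdh2 (Pearson r = 0.75), Svop (0.75), Aplp1 (0.74), Tomm40 (0.74) and Yipf3 (0.74), of 13015 genes compared. Of the group, Pcsk1n was the most alike, at 0.65 and rank 107. Chgb was at 0.44, Scg5 at 0.44, Scg2 at 0.20, Pcsk2 at 0.11 and Cpe at 0.02, and Scg3, Pam and Pcsk1 were at -0.20, -0.24 and -0.30. These are descriptions over libraries that share animals, sequencing pools and base composition. The median transcript GC content of the 50 genes most like Chga was 56.9%, against 49.9% for all genes, and Pcsk1, the least alike of the group, has a GC content of 40.6%, higher than that of only 7.08% of genes. With rank correlation none of the 5 named genes remained among the first 5.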

How the data were processed

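RNA was polyA-selected and made into libraries of a single animal and region with the NEBNext Ultra kit, pooled by region and sequenced as single-end reads. Per the study's methods and the submitters' processing notes, the authors aligned reads with HISAT2 to mm10 and counted uniquely mapped reads per gene with featureCounts and its inbuilt annotation. The strand setting and tool versions are not given in the sources used here, so that reads of overlapping antisense genes cannot be told apart. The deposited counts per gene were used as they are (27179 genes, 77 libraries). Of 80 samples in the labels, 3 have no column in the count table and were not analysed here. They are virgin libraries of amygdala, hippocampus and cerebellum. The study's methods state that a library of each of these regions was removed as an outlier on principal component analysis. The virgin groups of these regions were thus trimmed after the data were seen. The deposited log2 table holds 13016 genes. Its values equalled log2(count divided by a size factor, plus 4) and it served to check the filter and for gene symbols only. The authors added spike-in controls to the RNA before mRNA isolation, and these were not used here.

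The filter on low values (5 CPM or more in 8 libraries or more) kept 13016 genes. Each region was fitted alone with edgeR 4.0.16 in R 4.3.3 (TMM, robust quasi-likelihood F-test). Pairs of regions came from 1 fit of the 10 groups of region and state. Adjusted p-values (Benjamini-Hochberg) cover the 13016 genes kept, with a threshold of 0.05. The SE is the log2 fold change divided by the root of F. The biological coefficient of variation was 11.3% (hippocampus) to 16.3% (neocortex). Ratios used counts plus 0.5 and exact permutation tests (scipy 1.17.1). Gene lengths and GC content came from GENCODE M21 for 97.05% of the genes kept. Alternatives were limma-voom 3.58.1 (the study's test), DESeq2 1.42.0, other size factors, no filter, the animal number series (3 or 4 digits) as covariate, a length and GC offset, 1 fit of all groups, the animal as block, and leaving out each library. Fits were tested on simulated data.

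Regions of 1 animal are paired by the animal number in the labels. The median correlation of residuals between regions lay between -0.01 and 0.10 for the same animal and between -0.01 and 0.01 for different animals. The 10 genes and the gene lists were chosen with earlier results of these data known. Named genes were all 10 genes, Vgf, up to 3 called genes in each direction per pathway list and region, and the 5 genes most correlated with Chga. Marker lists were used as checks. No gene of the endothelial, microglial, oligodendrocyte, astrocyte or choroid plexus lists was called in amygdala, hippocampus or neocortex. In hypothalamus 1 of 6 choroid plexus, 1 of 4 endothelial, 2 of 5 oligodendrocyte, 1 of 5 astrocyte and 0 of 5 microglial genes were called, beside 22.6% of all genes, and in cerebellum 0 of 6, 0 of 4, 1 of 5 (Mbp), 1 of 5 (Aqp4) and 1 of 5 (C1qa), all higher in primiparous females, beside 0.707% of all genes.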

Additional observations from a re-analysis of the deposited data

Results flagged for a closer look

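Of 100 groups of region, state and gene, 12 held a library farther from its nearest neighbour than Dixon's test allows. Chance gives about 1 in 20 groups where groups are independent and values normally distributed. The groups here share libraries between genes, so the count of 12 is not tested against that rate. Of the 12, 4 came from the neocortex library of primiparous animal 427, which stood apart over all genes: Chga at 284 CPM, Chgb at 717 CPM (next 606), Scg5 at 156 CPM (next 114) and Pcsk1n at 1143 CPM (next 780). In amygdala, virgin animal 4486 had 113 CPM of Scg5 and 38.4 CPM of Pcsk1. Virgin animal 405 had 233 CPM of Chga and primiparous animal 413 had 885 CPM of Pcsk1n. In hypothalamus the values were 336 CPM of Chga in virgin animal 409, 149 CPM of Scg5 in virgin animal 4490 and 91.7 CPM of Pcsk1 in virgin animal 4489. In cerebellum, primiparous animal 425 had the lowest Chga, at 112 CPM.

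The state effect in hypothalamus minus that in amygdala was 0.73 on the log2 scale for Chga and 0.60 for Pcsk1n. The choice of the group rests on this contrast, so that these values describe it and test nothing. With the animal as a block the differences were 0.71 and 0.56, and with the length and GC offset added 0.45 and 0.33.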

How the results depend on the processing

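Of 1404 values recomputed under an alternative, 1341 kept their direction and side of the threshold, or, for counts, stayed within 1.5 times. In hypothalamus the number of the 10 genes called by state was 4. It was 2 without the filter (beside 11.3% of all genes), 1 in 1 fit of all 10 groups (16.8%), and 0 with the animal number series as covariate (0.023%, or 3 genes) or with the length and GC offset (2.96%). Leaving out each library in turn gave between 2 and 5 calls, beside 15.5% (without virgin animal 4490) to 31.6% (without primiparous animal 418) of all genes. In those 16 fits Pcsk1n was called in 5 and Scg2 in 3, Pcsk1 and Scg3 in 1 each, and Chga and Chgb in 16. In amygdala the count was 0, and 1 with DESeq2 (0.73% of all genes), with 1 fit of all 10 groups (1.09%), and in 1 of 15 fits that left out a library (0 to 1), that without primiparous animal 413 (0.238%). These contrasts chose the group, so that the counts are no evidence of stability. Of the 16 animals, 2 of 8 virgins and 7 of 8 primiparous females have a number of 3 digits, so the number series and the state are largely confounded. Of 46 values not called in the main test, 16 changed sign under some alternative. With the animal as a replicate block, the counts between regions were the same (8 for hypothalamus against amygdala, for example) and the block alone changed no call. For the state effect in hypothalamus minus amygdala the count was 2 with the block (14% of all genes) and 0 when the length and GC offset was added (0.715%), with 0.45 for Chga and 0.33 for Pcsk1n. The log2 ratio of Pcsk1 to Pcsk2 in hippocampus minus neocortex, -0.21, passed at -0.25 without the 2 libraries that stood apart, a setting chosen after seeing the data. Of the 5 genes most like Chga, 0 remained with Spearman correlation. Other than for the settings that use fewer samples or genes, the cause was not tested.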
